A study of Mus musculus with 3 samples.

Results

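Mature oligodendrocytes with Klk6 made up 829 of the 13964 cells with at least 200 detected genes in single-cell libraries of the mouse medial vestibular nucleus (MVN), a hindbrain nucleus that receives input from the inner ear. A cell was counted when it had at least 1 UMI (unique molecular identifier, a tag that marks 1 captured transcript) of Klk6 and at least 1 UMI each of 3 or more of the myelin genes Mog, Mag, Mobp, Opalin, Ermn and Cldn11. It also had to hold under 15 UMIs per 10000 of Enpp6, Bmp4, Neu4, Itpr2, Tcf7l2 and Gpr17 together, under 5% Ttr, and fewer than 3 of the precursor genes Pdgfra, Cspg4, C1ql1 and Lhfpl3. They were 73 of 4813 cells in ULI (1.52%), 88 of 4544 in ULC (1.94%) and 668 of 4607 in the control (14.5%). These cells are called Klk6+ below, and the 2306 cells that met every condition but had no Klk6 UMI are called Klk6-.

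The tissue came from C57BL/6 mice (C57BL/6J in the study's methods) operated on postnatal day 20 and collected 1 day later. ULI was the MVN ipsilateral to a unilateral labyrinthectomy (UL) of the right ear, ULC was the contralateral MVN of the same 11 pooled animals, and the control was the MVN of 10 pooled animals in which only the bulla was opened. The treatment field of the labels names labyrinthectomy for all 3 samples, so the control was taken from its source label. Each condition was 1 library, so differences between conditions have no replicate check, and condition cannot be told apart from library.

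Oligodendrocytes wrap axons of the central nervous system in myelin, a compacted membrane rich in cholesterol and galactolipids. They arise from precursors, pass through a newly formed stage marked by Enpp6 and Tcf7l2, and then switch on myelin genes such as Mog and Mag. Klk6 (kallikrein related-peptidase 6) is a secreted serine protease, and in mouse single-cell surveys it marks a state of mature oligodendrocytes that is frequent in the hindbrain and spinal cord, while Ptgds and Il33 mark another.

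Klk6 lies at chr7:43824499-43832030 on the plus strand of GRCm38, and RefSeq gives it more than 1 start. The 250 bases before the starts are shown for Klk6, which defined the cells, for Anxa5, which was high in them, and for Ptgds, which was low in them. The letters searched on both strands were ACAAAG for SOX factors, CTGGCAC or CTGGTAC for MYRF and TNAAGTG for NKX2 factors, and a match is in capitals. ACAAAG occurred in 16.5% of 32851 mouse windows of this length, the MYRF letters in 5.93% and the NKX2 letters in 10.1%. The 4 windows, from RefSeq on GRCm38.p6 and written 5′ to 3′ on the strand of the gene, held 1 match, an ACAAAG that began 193 bases before the first Klk6 start.
Klk6, chr7:43824294-43824543, plus strand: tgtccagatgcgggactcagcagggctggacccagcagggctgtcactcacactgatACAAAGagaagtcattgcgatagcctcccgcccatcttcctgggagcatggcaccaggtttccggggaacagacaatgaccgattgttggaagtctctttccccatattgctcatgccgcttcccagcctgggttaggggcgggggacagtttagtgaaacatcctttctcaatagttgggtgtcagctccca
Klk6, chr7:43825200-43825449, plus strand: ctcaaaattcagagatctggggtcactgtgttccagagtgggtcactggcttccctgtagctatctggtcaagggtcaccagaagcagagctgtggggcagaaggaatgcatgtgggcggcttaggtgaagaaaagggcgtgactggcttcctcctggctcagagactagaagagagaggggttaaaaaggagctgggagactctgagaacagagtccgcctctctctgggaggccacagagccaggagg
Anxa5, chr3:36475888-36476137, minus strand: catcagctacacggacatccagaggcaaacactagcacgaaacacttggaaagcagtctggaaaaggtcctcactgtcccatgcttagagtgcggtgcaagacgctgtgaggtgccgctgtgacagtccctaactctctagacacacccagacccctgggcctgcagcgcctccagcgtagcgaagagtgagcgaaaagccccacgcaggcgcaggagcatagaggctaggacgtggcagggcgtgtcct
Ptgds, chr2:25469750-25469999, minus strand: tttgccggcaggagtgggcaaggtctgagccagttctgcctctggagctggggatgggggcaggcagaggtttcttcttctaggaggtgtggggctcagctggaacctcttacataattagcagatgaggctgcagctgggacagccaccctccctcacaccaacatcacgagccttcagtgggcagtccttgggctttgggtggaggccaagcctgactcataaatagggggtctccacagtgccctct

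The table held 28676 genes and 57216827 UMIs in 14876 columns, of which 912 columns had under 200 genes and were left out. The median depth over cells was 2100 UMIs in ULI, 931 UMIs in ULC and 3177 UMIs in the control. Klk6+ cells had a median of 12000 UMIs in ULI, 916.5 UMIs in ULC and 16858 UMIs in the control, and Klk6- cells had 888.5, 772 and 2160.5 UMIs in the same libraries. The median mitochondrial share in Klk6+ cells was 6.12% in ULI, 5.40% in ULC and 7.26% in the control. Columns carried running codes, of which 4816 occurred in all 3 libraries, so shared cell barcodes could not be counted, and no 2 columns were identical. Cells that met the rule and also had 3 or more markers of another class (mixed cells) numbered 4 of 73 Klk6+ cells in ULI, 4 of 88 in ULC and 92 of 668 in the control.

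The myelin genes used by the rule were found in most Klk6+ cells, which is a description of the choice. Cldn11, which forms the tight junctions of myelin, had at least 1 UMI in 99.6% of the 829 cells, Mobp in 99.4%, Mag in 97.5%, Ermn in 93.6% and Mog in 90.5%. Summed over the Klk6+ cells of a library, Mog, a glycoprotein of the outermost myelin layer, reached 3127 CPM (UMIs per 1000000 UMIs of the sum) in ULI, 2508 CPM in ULC and 2450 CPM in the control. Opalin, a myelin membrane glycoprotein, was the exception among the 6 markers, with UMIs in 14.4% of Klk6+ cells and in 23.2% of Klk6- cells. Its level was 24.99, 65.1 and 29.5 CPM in Klk6+ cells of ULI, ULC and the control, against 294, 392 and 160 CPM in Klk6- cells. Enpp6, a choline phosphodiesterase of newly formed oligodendrocytes that the rule capped, stood at 401, 315 and 662 CPM in Klk6+ cells of ULI, ULC and the control, against 124, 75.4 and 365 CPM in Klk6- cells. Lists of markers of other cells were low apart from that of the choroid plexus. The 8 microglial markers together stood at 102, 29.4 and 181 CPM in Klk6+ cells of ULI, ULC and the control, and the 4 precursor genes at 87.5, 46.2 and 27.2 CPM. The choroid plexus markers without Ttr stood at 4289, 3740 and 5694 CPM, nearly all of it Enpp2, and at 4678, 4007 and 4570 CPM in Klk6- cells.

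Most members held few Klk6 UMIs. The median was 2 Klk6 UMIs in ULI, 2 in ULC and 4 in the control, and the highest cell had 19, 31 and 90. A single Klk6 UMI put 28 of the 73 cells in ULI, 40 of the 88 in ULC and 164 of the 668 in the control among the members. Besides Klk6, cells lay near the limits on myelin and immature genes. Of the members, 31 had exactly 3 of the 6 myelin markers, and 14 Klk6-bearing cells with exactly 2 stood just outside. Immature genes at 10 to under 15 per 10000 UMIs were found in 99 members, and 27 cells at 15 to under 20 stood outside. The limit on precursor genes alone left out 2 Klk6-bearing cells and the Ttr limit alone 0. In all, 934 cells had a Klk6 UMI and 105 of them did not meet the rule.

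Klk6-bearing cells were a smaller share of mature oligodendrocytes in ULI and ULC than in the control. Because deeper cells show more genes, each cell was thinned to 1000 UMIs and shallower cells were left out (458 in ULI, 572 in ULC and 298 in the control). At that depth 20 of 431 mature oligodendrocytes in ULI had Klk6, or 4.64% (95% exact binomial interval 2.86 to 7.08), 27 of 264 in ULC, or 10.2% (6.85 to 14.5), and 240 of 1112 in the control, or 21.6% (19.2 to 24.1). The 3 intervals do not overlap each other except those of ULI and ULC, which meet between 6.85 and 7.08%. Without thinning the shares were 8.21%, 10.5% and 47.4%. Microglia, which should lack Klk6, had it at the same 1000 UMIs in 0 of 956 cells in ULI (which allows a share of up to 0.314%), 0 of 479 in ULC (up to 0.626%) and 6 of 1806 in the control, or 0.332%. Cells that passed the limit on immature genes but met the others were classed as newly formed. They had Klk6 in 0.347% of 288 cells in ULI, 1.43% of 140 in ULC and 16.9% of 89 in the control. This class was not alike across libraries. Without thinning, its cells held a mean of 3.61, 3.54 and 4.44 of the 6 myelin markers in ULI, ULC and the control. Ermn was found in 18.2%, 18.5% and 74.8% of them, so the control cells of this class looked more mature. The intervals and limits of these shares cover counting error only.

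**Figure D1:**
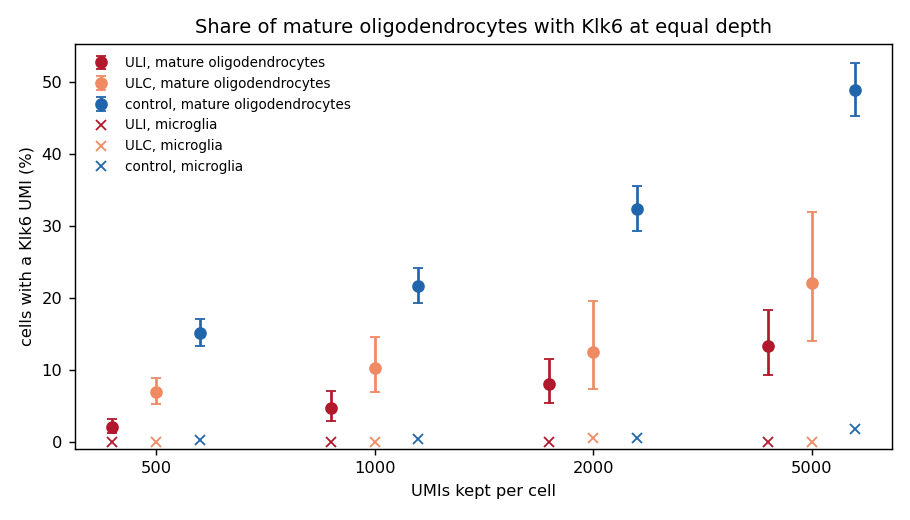
Share of cells with at least 1 Klk6 UMI (%, y axis) after thinning each cell to 500, 1000, 2000 or 5000 UMIs (x axis), 1 library per condition. Dots are mature oligodendrocytes with 95% exact binomial intervals and crosses are microglia; at 5000 UMIs the shares are 13.3% in ULI, 22.0% in ULC and 48.9% in the control.

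The same order held within each range of depth, though neighbouring shares often lay within counting error. Among mature oligodendrocytes of 10000 to under 20000 UMIs, 24.6% of 142 cells in ULI, 26.0% of 50 in ULC and 58.8% of 250 in the control had Klk6. Above that depth the shares were 22.9% of 35 cells in ULI, 28.0% of 25 in ULC and 83.7% of 332 in the control. Under 1000 UMIs they were 2.18% of 458 cells in ULI, 8.39% of 572 in ULC and 31.9% of 298 in the control. Between 5000 and 10000 UMIs, 4.76% of 63 cells in ULI, 25% of 16 in ULC and 26.0% of 146 in the control had Klk6, so ULC lay near the control there.

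The Klk6 level over all mature oligodendrocytes, Klk6+ and Klk6- together, was 59.8 CPM in ULI (95% Poisson interval 52.6 to 67.7), 172 CPM in ULC (155 to 190) and 373 CPM in the control (364 to 383). As a log2 ratio, ULI over control was -2.64 (-2.83 to -2.46), ULC over control was -1.12 (-1.27 to -0.97) and ULI over ULC was -1.52 (-1.76 to -1.29). The level within the Klk6+ cells, which the rule fixed to be above 0, was 310 CPM in ULI, 793 CPM in ULC and 522 CPM in the control. Members with a single Klk6 UMI were 38.4% in ULI, 45.5% in ULC and 24.6% in the control, and their median depth was 1253, 773.5 and 1391.5 UMIs.

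Klk6+ and Klk6- mature oligodendrocytes differed in many genes besides Klk6. UMIs were summed over each kind of cell in each library, and the 6 sums were compared with edgeR's quasi-likelihood test, with the library as a term and Benjamini-Hochberg adjustment. Of 11269 genes with at least 50 UMIs over the 6 sums, 366 were higher in Klk6+ cells (3.25%) and 694 were lower (6.16%), at an adjusted p under 0.05, and 2282 had an unadjusted p under 0.05. The levels of the 3 Klk6+ sums lay all above the 3 Klk6- sums for 191 of the 366 and all below them for 483 of the 694. This was counted only among the genes called and not over all genes tested, so it describes the calls and adds no support to them. Without the ULI library 173 genes were higher and 575 lower, without mixed cells 258 were higher and 288 lower, and in a fit that ignored which library a sum came from 0 were higher and 1 was lower. The Klk6+ cells were the deeper ones. In another setting every cell of at least 1000 UMIs was thinned to 1000 UMIs, and Klk6 status was taken again afterwards. That left 21 Klk6+ cells in ULI, 22 in ULC and 233 in the control, and members that lost their Klk6 UMIs counted as Klk6-. There 15 genes were higher and 89 lower of 4608. Those 15 included Hopx, Cdkn1c, Rab37, Anxa5, S100b, Tubb2b, Apod and Trf. Their log2 fold changes were smaller in that setting, at 1.75 for Hopx, 1.799 for Cdkn1c, 1.74 for Rab37, 1.69 for Anxa5, 1.49 for S100b, 1.43 for Tubb2b, 1.42 for Apod and 0.93 for Trf, against 2.88, 2.86, 2.77, 2.63, 2.28, 2.80, 1.71 and 1.28 at full depth. The setting changed depth and Klk6 status together, so their parts in the drop cannot be told apart.

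Of the genes furthest up, Hopx, a small homeodomain protein that does not bind DNA, had 369, 447 and 440 CPM in Klk6+ cells of ULI, ULC and the control, against 54.6, 29.0 and 99.0 CPM in Klk6- cells. Each Klk6+ sum was above every Klk6- sum, and the log2 fold change was 2.88 ± 0.25 (SE, edgeR adjusted p = 1.67e-05). Cdkn1c, an inhibitor of cyclin-dependent kinases, had 319, 327 and 451 CPM in Klk6+ cells, against 44.8, 20.9 and 107 CPM in Klk6- cells of the same libraries. It also did not overlap between the kinds of cell, with a log2 fold change of 2.86 ± 0.26 (edgeR adjusted p = 2.25e-05). Rab37, a small GTPase of secretory vesicles, had 507, 418 and 410 CPM in Klk6+ cells, against 77.9, 31.3 and 99.9 CPM in Klk6- cells. Its log2 fold change was 2.77 ± 0.24 (edgeR adjusted p = 1.67e-05), and its Klk6+ sums were alike in the 3 libraries. Tubb2b, a beta-tubulin, had 195, 101 and 706 CPM in Klk6+ cells, against 26.3, 15.7 and 108 CPM in Klk6- cells. The control was high and ULC low in either kind of cell, so the sums overlapped, yet Klk6+ cells were higher in each library by 2.80 ± 0.18 on the log2 scale (edgeR adjusted p = 1.38e-06).

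Anxa5, a calcium-dependent phospholipid-binding protein at chr3:36448923-36475894, had 464, 430 and 858 CPM in Klk6+ cells of ULI, ULC and the control, against 70.5, 32.5 and 271 CPM in Klk6- cells (log2 fold change 2.63 ± 0.27, edgeR adjusted p = 5.24e-05). The homeobox gene Nkx2-9 was scarce but followed the same direction, at 28.7, 10.5 and 51.7 CPM in Klk6+ cells against 0.896, 0.580 and 12.6 CPM in Klk6- cells (log2 fold change 3.06 ± 0.52, edgeR adjusted p = 0.00192). Gm38103, a transcript annotated beside Nkx2-9 on the same strand (chr12:56609613-56610476 against chr12:56611389-56613284), rose with it by 2.76 on the log2 scale, and reads of the neighbours may not be separable. The highest fold change was that of Tmprss5, a membrane-bound serine protease, at 21.2, 27.3 and 42.7 CPM in Klk6+ cells against 1.49, 0.580 and 9.88 CPM in Klk6- cells (3.11 ± 0.50, edgeR adjusted p = 0.00141). The other genes of the top 15 were low in level, and comprised Clrn1 at a log2 fold change of 2.98, Ncs1, a neuronal calcium sensor, at 2.97, the sialyltransferase St8sia5 at 2.84, Art3 at 2.73, Slc13a3, a sodium-coupled dicarboxylate carrier, at 2.72, 1810043G02Rik at 2.65 and Pdlim1 at 2.64. Pdlim1 lost its call without the ULI library and without mixed cells.

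**Figure D2:**
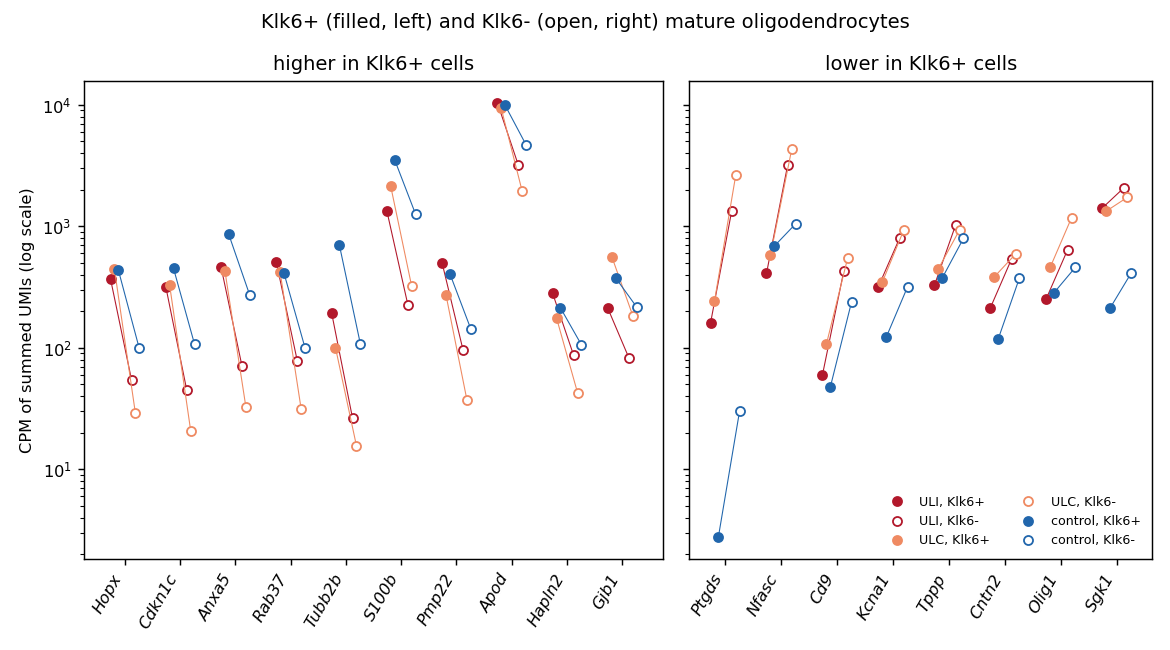
Level in CPM (y axis, log scale) of 18 genes (x axis) in UMI sums of Klk6+ (filled, left) and Klk6- (open, right) mature oligodendrocytes, with a line joining the sums of a library. In the left panel every line falls towards the Klk6- cells, and in the right panel every line rises.

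Among genes of late mature oligodendrocytes, 11 of 25 tested were higher in Klk6+ cells (3.25% of all genes tested were), 6 were lower, and the median log2 fold change was 0.73, against -0.07 over all genes tested. S100b, a calcium-binding protein, had 1342, 2141 and 3547 CPM in Klk6+ cells of ULI, ULC and the control, against 227, 321 and 1261 CPM in Klk6- cells (log2 fold change 2.28 ± 0.20, edgeR adjusted p = 1.51e-05). Apod, a secreted lipid-binding lipocalin, had 10418, 9357 and 9919 CPM in Klk6+ cells, against 3186, 1938 and 4683 CPM in Klk6- cells (1.71 ± 0.17, edgeR adjusted p = 3.13e-05). The Apod level was nearly the same in the 3 Klk6+ sums and differed more among the Klk6- sums. Mgst3, a glutathione transferase, was higher by 2.59, the selenium carrier Selenop by 1.57, the iron carrier Trf by 1.28, the actin-binding Anln by 1.27, the carnosine synthase Carns1 by 0.84 and Ndrg1 by 0.73 on the log2 scale. Of the lower genes of this list, Ptgds, the synthase of prostaglandin D2 at chr2:25466709-25470046, had 160, 241 and 2.77 CPM in Klk6+ cells, against 1351, 2627 and 30.3 CPM in Klk6- cells (-3.29 ± 0.17, edgeR adjusted p = 1.91e-07). Within each library Ptgds was lower in Klk6+ cells, while the ULI and ULC levels stood above those of the control in either kind of cell. Kcna1, a potassium channel of the region beside the node of Ranvier, had 320, 348 and 123 CPM in Klk6+ cells, against 804, 926 and 318 CPM in Klk6- cells (-1.35 ± 0.15, edgeR adjusted p = 8.45e-05). The metabotropic glutamate receptor Grm3 fell by 1.28, Qdpr by 1.21 and the septin Sept4 by 0.64, and Jph4 had 1 UMI in all Klk6+ cells together. Il33 had 0, 0 and 0.63 CPM in Klk6+ cells of ULI, ULC and the control.

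Genes on a list of compact myelin and the myelin membrane, some of them nodal or paranodal, were called in either direction. Of 28 tested, 5 were higher and 5 lower (3.25% and 6.16% of all genes tested), with a median log2 fold change of 0.13. Mbp had log2 fold change -0.28 ± 0.14 (edgeR adjusted p = 0.267) and Mal had -0.23 ± 0.11 (edgeR adjusted p = 0.259). The higher members were Pmp22, better known from peripheral myelin, at 500, 273 and 409 CPM in Klk6+ cells against 95.6, 37.1 and 143 CPM in Klk6- cells (2.22 ± 0.22, edgeR adjusted p = 3.13e-05), Hapln2, a link protein of the nodal matrix (1.56 ± 0.20), the gap junction protein Gjb1 (1.26 ± 0.18), the actin-severing Gsn (0.72 ± 0.13) and Ugt8a, which makes galactosylceramide (0.49 ± 0.12). The lower members were the tetraspanin Cd9, at 59.97, 107 and 47.5 CPM in Klk6+ cells against 426, 549 and 239 CPM in Klk6- cells (-2.46 ± 0.18, edgeR adjusted p = 3.6e-06), Nfasc, whose glial form anchors the paranode (-2.15 ± 0.36), the tubulin-binding Tppp (-1.24 ± 0.16), Cntn2, an adhesion molecule beside the paranode (-1.20 ± 0.19), and Tspan2 (-0.73 ± 0.12). The Nfasc gap was wide in ULI and ULC, where Klk6+ cells had 410 and 577 CPM against 3230 and 4300 CPM in Klk6- cells, and narrow in the control, with 688 CPM against 1050 CPM. No test of that difference between libraries was possible with 1 library each.

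Of 17 oligodendrocyte transcription factors tested, 3 were higher, namely Hopx, Nkx2-9 and Nkx2-2 (1.47 ± 0.28), and 3 were lower, against 3.25% and 6.16% of all genes tested. Nkx2-2, a homeobox factor of the lineage, had 42.5, 63.0 and 58.5 CPM in Klk6+ cells of ULI, ULC and the control, against 14.3, 15.1 and 29.9 CPM in Klk6- cells. The lower genes were Olig1, a basic helix-loop-helix factor of the lineage, with 255, 462 and 285 CPM in Klk6+ cells against 642, 1177 and 461 CPM in Klk6- cells (-1.09 ± 0.17), its relative Olig2 (-0.81 ± 0.20) and Zfp488 (-1.60 ± 0.39). Sox10 and Myrf, which drive myelin genes, had log2 fold changes of 0.00 ± 0.15 and -0.31 ± 0.15 (edgeR adjusted p = 0.999 and 0.282).

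The other kallikreins were scarce. Of the 8 further family members in the table none reached 50 UMIs over the 6 sums, and in Klk6+ cells the highest was Klk9, with 0, 8.40 and 2.50 CPM in ULI, ULC and the control. Of 16 other extracellular proteases, receptors and inhibitors tested, 2 were higher and 4 lower, against 3.25% and 6.16% of all genes. Mmp15, a membrane-type metalloprotease, had 49.98, 77.7 and 94.2 CPM in Klk6+ cells against 11.9, 11.01 and 56.4 CPM in Klk6- cells (1.67 ± 0.32), and the proteoglycan Spock3 was higher by 1.24 ± 0.22. The metalloprotease Adamts1 fell by 2.21, the serpin Serpini1 by 1.69, the serine protease Htra1 by 1.30 and Timp2, an inhibitor of metalloproteases, by 0.96. Plat, tissue plasminogen activator, had -0.40 ± 0.19 (edgeR adjusted p = 0.25), and Adamts4 had -0.30 ± 0.15 (edgeR adjusted p = 0.309).

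The counts for the next lists stand against 3.25% higher and 6.16% lower over all genes tested. Of 10 genes of newly formed oligodendrocytes outside the rule, 2 were higher in Klk6+ cells, Mpzl1 by 0.99 and the membrane skeleton protein Epb41l2 by 0.92 on the log2 scale, and 3 were lower. Of the lower genes Rras2 fell by 1.54 and Tmem2 by 1.77, and the calcium-sensing receptor Casr had 0, 0 and 0.179 CPM in Klk6+ cells of ULI, ULC and the control, against 8.66, 26.1 and 5.17 CPM in Klk6- cells. Of 22 genes of axonal support and ion transport, Ldhb, a lactate dehydrogenase subunit, was higher (1.34 ± 0.27), and 4 were lower, namely Kcna1 and the glutamate receptors Gria2 (-2.13 ± 0.38), Grm3 and Grm7. Of 24 cholesterol synthesis genes, 3 were higher and 0 lower (10 and 0 at an unadjusted p under 0.05, 5 and 0 by DESeq2), with a median log2 fold change of 0.26. They were Hmgcs1 at 0.46 ± 0.12, Sqle at 0.60 ± 0.14 and Msmo1 at 0.51 ± 0.14, and none of the 24 passed without mixed cells. Ribosomal protein genes gave 2 higher and 0 lower of 128, and mitochondrial genes 0 higher and 1 lower of 16, so neither list stood above the shares over all genes by more than 1 gene.

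Several stress lists held genes that were lower in Klk6+ cells and, with every cell kept, no gene that was higher by edgeR or DESeq2. Of 25 immediate early genes 10 were lower by edgeR (7 by DESeq2), of 16 glucocorticoid-responsive genes 5 (2 by DESeq2), of 13 heat shock genes 2 (2 by DESeq2) and of 12 reactive oligodendrocyte genes 4 (3 by DESeq2). Over all 11269 genes tested, edgeR called 6.16% lower and 3.25% higher, and DESeq2 called 425 genes lower and 317 higher. At an unadjusted p under 0.05, the higher genes numbered 0, 2, 1 and 0 in these lists. Markers of other cells were lower beside them, 6 of 8 microglial, 5 of 6 endothelial and 4 of 6 astrocyte markers, and the endothelial markers together stood at 19.99, 16.8 and 21.4 CPM in Klk6+ cells of ULI, ULC and the control, against 39.7, 84.6 and 766 CPM in Klk6- cells. Without mixed cells edgeR called 0 of 20 immediate early genes, 0 of 5 microglial, 0 of 2 endothelial and 0 of 2 astrocyte markers. Calls that stood in that setting were 3 of 16 glucocorticoid-responsive, 2 of 12 heat shock and 1 of 8 reactive genes lower, 1 of 12 heat shock genes higher, and the 1 pericyte and 1 ependymal marker tested lower. The glucocorticoid-responsive kinase Sgk1 was lower by 0.61 ± 0.14 (edgeR adjusted p = 0.014) with 1417, 1335 and 213 CPM in Klk6+ cells against 2066, 1738 and 416 CPM in Klk6- cells. Of 10 interferon response genes 0 were called by edgeR and 0 by DESeq2, and 2 were lower at an unadjusted p under 0.05. Neuronal markers gave 6 lower of 7, and Tubb3, a beta-tubulin of neurons, was higher by 0.998 ± 0.19, with 77.5, 113 and 159 CPM in Klk6+ cells against 34.9, 61.4 and 85.1 CPM in Klk6- cells. Without mixed cells only 3 neuronal markers could be tested, of which 0 were lower and 1 was higher.

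The genes furthest down were close to absent from Klk6+ cells, so no fitted fold change is given for them. Prom1, a pentaspan membrane protein at chr5:43993620-44102032, had 1 UMI in the Klk6+ cells of each library, against 148, 151 and 47.4 CPM in Klk6- cells of ULI, ULC and the control. The log2 ratio of its counts was -6.88 (95% counting interval -12.19 to -4.40) in ULI, -6.17 (-11.48 to -3.68) in ULC and -9.05 (-14.36 to -6.56) in the control. The neuropeptide gene Tac1 had 0, 0 and 0.0893 CPM in Klk6+ cells, against 27.5, 20.3 and 12.1 CPM in Klk6- cells of the same libraries. The neuronal genes Pcp4 and Synpr and the neutrophil gene S100a8 had 0 UMIs in every Klk6+ sum. S100a8 was uneven among Klk6- cells, at 114 CPM in ULI, 0.580 CPM in ULC and 0.225 CPM in the control, and DESeq2 called neither it nor Pcp4 (adjusted p = 0.76 and 0.25).

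A finer reading came from mature oligodendrocytes of at least 5000 UMIs, grouped by Klk6 per 10000 UMIs (0, over 0 to 2, over 2 to 5, and over 5). The groups held 194, 24, 15 and 7 cells in ULI, 67, 7, 5 and 12 in ULC, and 265, 135, 168 and 160 in the control, and no test was made. Along these groups Hopx stood at 54.7, 276, 341 and 862 CPM in ULI, at 7.31, 0, 36.6 and 752 CPM in ULC, and at 71.6, 108, 236 and 793 CPM in the control. It was highest where Klk6 was highest, and in ULC most of it lay in the last group. Anxa5 stood at 56.2, 412, 480.4 and 559 CPM in ULI, 12.8, 105, 183 and 657 CPM in ULC, and 221, 481, 680.0 and 1215 CPM in the control. Apod in the same libraries reached 11676, 11477 and 11726 CPM in the last group, against 3083, 1761 and 4648 CPM in cells without Klk6. Kcna1 ran the other way, at 820, 364, 318 and 218 CPM in ULI, 1059, 533, 452 and 204 CPM in ULC, and 358, 240, 139 and 39.7 CPM in the control. Nfasc differed in shape, at 3367, 389, 349 and 445 CPM in ULI, where the fall lay between cells without and with Klk6.

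**Figure D3:**
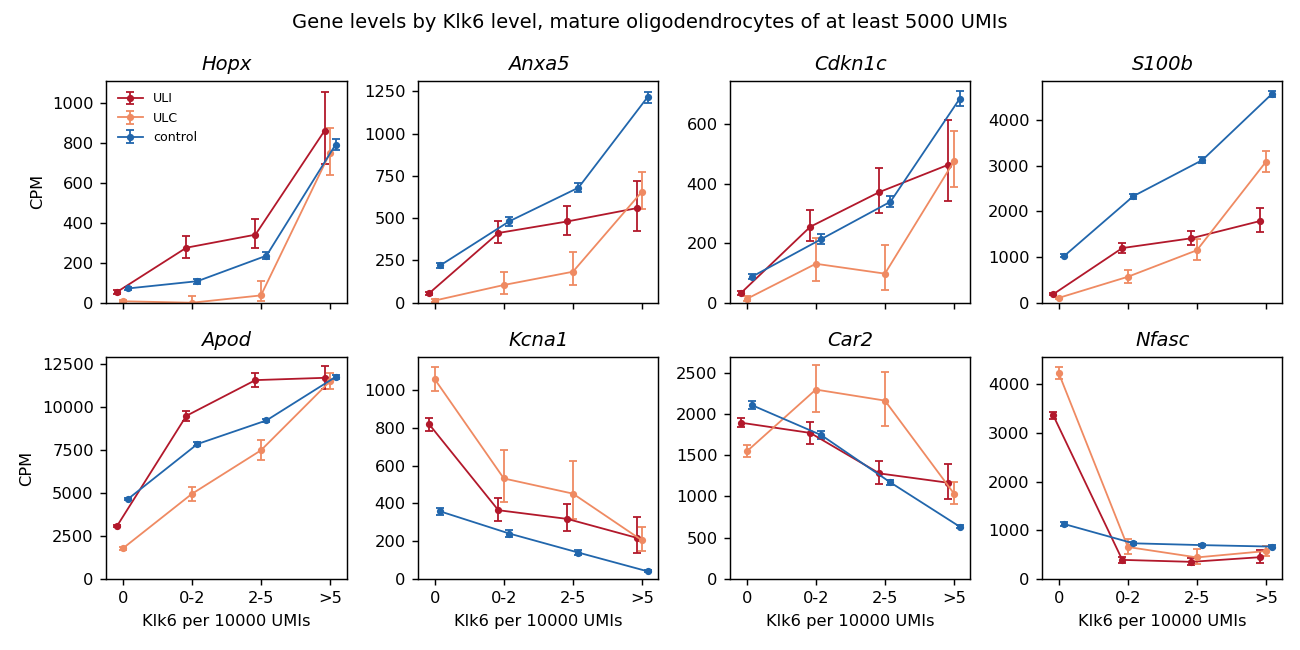
CPM (y axis) of 8 genes in mature oligodendrocytes of at least 5000 UMIs, grouped by Klk6 per 10000 UMIs (x axis, where 0-2 means over 0 to 2), with 95% Poisson intervals, 1 library per line. Hopx, Anxa5, Cdkn1c, S100b and Apod are highest in the last group in the control, Kcna1 and Car2 are lowest there, and Nfasc is highest in cells without Klk6.

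Between conditions, Klk6+ cells were compared by the log2 ratio of CPM. A gene was called when it differed at least 2-fold and had at least 50 UMIs in both libraries together, with 95% conditional binomial intervals that cover counting error. ULI over control gave 503 genes higher (5.52%) and 1100 lower (12.1%) of 9120, with a median of -0.08 over those found in both libraries. ULC over control gave 1199 higher (13.2%) and 763 lower (8.38%) of 9100, with a median of -0.03. With TMM scaling, which lowered the median to -0.23, ULC over control gave 926 higher and 1178 lower, so the balance of directions there depends on scaling. The balance also turned at 200 UMIs or more, with 425 higher and 593 lower. As a mean over cells there were 1385 higher and 2393 lower. At 20 UMIs or more the balance did not turn, with 1678 higher and 763 lower. After thinning to 1000 UMIs per cell, ULI over control gave 87 higher and 252 lower of 1983, and ULC over control gave 138 higher and 166 lower of 1914. ULI over ULC gave 182 higher (5.08%) and 383 lower (10.7%) of 3585. ULI and ULC share the control library, and Klk6+ sums held 800339 UMIs in ULI, 476447 in ULC and 11195847 in the control.

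Most glucocorticoid-responsive genes stood higher in either UL library. Of 13 measured, 9 were at least 2-fold higher in ULI and 9 in ULC than in the control (5.52% and 13.2% of all genes were), none was lower, and the medians were 1.66 and 2.13. Sgk1, a serine/threonine kinase induced by glucocorticoids, had 1417 CPM in ULI, 1335 CPM in ULC and 213 CPM in the control, a log2 ratio to control of 2.73 in ULI and 2.65 in ULC. In Klk6- cells the Sgk1 ratios were 2.31 and 2.06, and in microglia of the same libraries 0.50 and -0.22. Fkbp5, a co-chaperone of the glucocorticoid receptor, had 155 CPM in ULI, 181 CPM in ULC and 39.9 CPM in the control, with ratios of 1.96 and 2.18 in Klk6+ cells, 1.998 and 2.03 in Klk6- cells and 1.59 and 1.32 in microglia. The cell cycle inhibitor Cdkn1a had ratios of 1.84 in ULI and 2.26 in ULC, the kinase Sgk3 had 1.86 and 1.40, and Pdk4, which restrains pyruvate oxidation, had 2.78 and 2.21. Nfkbia stood near the control, at -0.16 and 0.54. Ddit4, an inhibitor of mTOR signalling, was at 74.97 CPM in ULI, 399 CPM in ULC and 76.5 CPM in the control, higher in ULC alone, with a ratio of 2.38 in Klk6+ cells and 2.50 in Klk6- cells.

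Of 17 immediate early genes, which cells switch on within minutes of a stimulus, 9 were at least 2-fold higher in Klk6+ cells of ULI than in the control and none lower, and 9 were higher and 1 lower in ULC (5.52% and 13.2% of all genes were higher), with medians of 1.03 and 1.13. Fos had 352 CPM in ULI, 630 CPM in ULC and 14.5 CPM in the control, ratios of 4.61 (4.32 to 4.89) and 5.44 (5.16 to 5.73). A single cell held 29.4% of the Fos UMIs in ULI and 28.3% in ULC, and without the cell of each library with the most the ratios were 4.24 and 5.14. Egr1 had 150 CPM in ULI, 231 CPM in ULC and 17.8 CPM in the control (ratios 3.08 and 3.70), Klf4 had ratios of 3.37 and 3.23, Dusp1 of 2.08 and 2.90 and Jun of 1.27 and 1.34. In Klk6- cells Fos stood at 1.60 and 1.26 and Egr1 at 0.22 and 0.14. Once mixed cells were left out on both sides, Fos stood at 4.96 and 5.78 in Klk6+ cells and at 2.98 and 3.11 in Klk6- cells. Egr1 then stood at 4.0001 and 4.48 in Klk6+ cells and at 2.39 and 2.39 in Klk6- cells, and Klf4 at 4.11 and 3.82 in Klk6+ cells and at 1.67 and 2.47 in Klk6- cells. In microglia the Fos ratios were 0.72 and 0.59. Of 12 heat shock genes 3 were at least 2-fold higher in ULI and 3 in ULC, and 1 was lower in ULI and 0 in ULC. The higher ones were Hspa1b, with ratios of 1.81 in ULI and 1.79 in ULC, Hspa1a, with 1.26 and 2.40, and Dnajb1, with 1.17 and 1.05, and the lower one was Hspa8, with -1.63 (-1.92 to -1.35) in ULI and -0.19 in ULC. Without mixed cells Hspa1b stood at 2.79 and 2.62 in Klk6+ cells and at 2.47 and 2.54 in Klk6- cells. The metal-binding Mt1 had 134 CPM in ULI, 126 CPM in ULC and 28.8 CPM in the control.

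**Figure D4:**
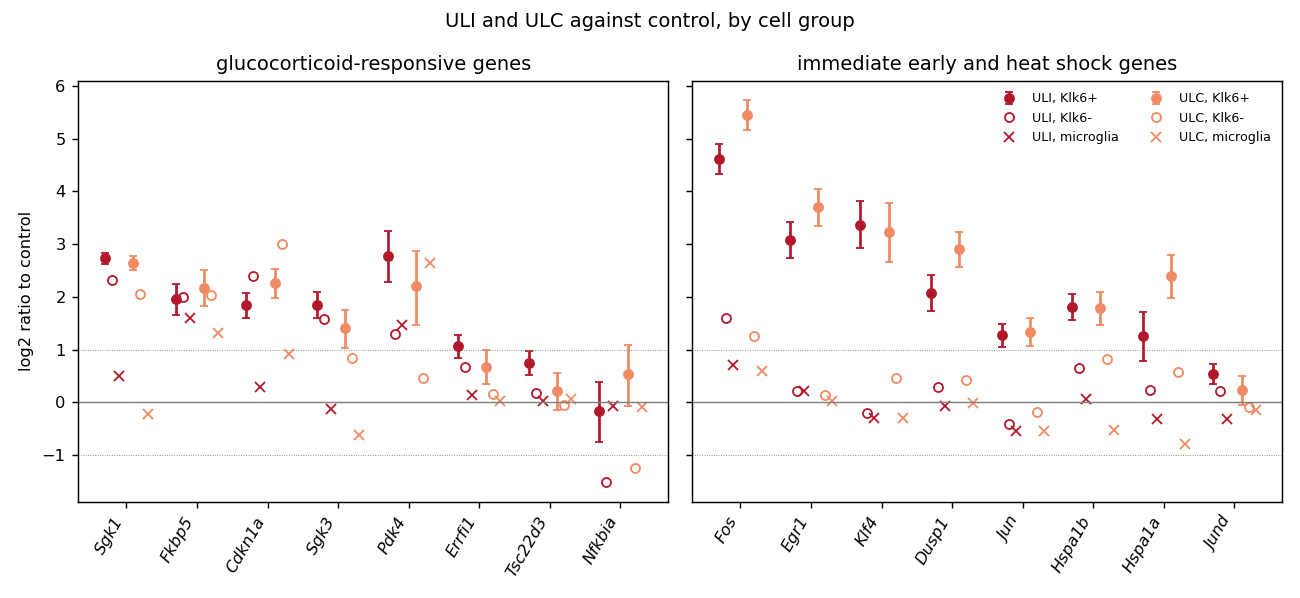
Log2 ratio to control (y axis, dotted lines at 2-fold) of ULI and ULC for glucocorticoid-responsive genes (left) and immediate early and heat shock genes (right) in Klk6+ cells (filled, 95% counting intervals), Klk6- cells (open) and microglia (crosses), 1 library each. Sgk1 and Fkbp5 stand above 2-fold in either kind of oligodendrocyte, and Fos stands highest in Klk6+ cells.

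Ptgds had the highest ratio in ULI, 5.85 (5.28 to 6.47), and was at 6.45 (5.86 to 7.07) in ULC. A single cell held 50% of its UMIs in ULI and 64.3% in ULC, and without the top cell of each library the ratios were 5.38 and 5.50. Klk6- cells gave 5.48 and 6.44, and microglia 2.46 and 3.86. Other high values rested on 1 cell, namely Acta2, an actin of smooth muscle, with all 40 of its ULC UMIs in 1 cell, Col4a1 with 96.9%, Vim with 96.7% and, in ULI, Gpm6a with 70.4%. Zfand4, at 3.81 in ULI and 3.93 in ULC, did not rest on 1 cell and stood at 3.29 in Klk6- cells of ULI.

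Tubb2a and Tubb2b, which were higher in Klk6+ than in Klk6- cells, stood lower in ULC. Tubb2a, a beta-tubulin, had 74.97 CPM in ULI, 10.5 CPM in ULC and 145 CPM in the control, a ratio of -3.79 (-5.42 to -2.57) in ULC over control and -0.96 in ULI over control. Tubb2b had -2.81 (-3.25 to -2.40) in ULC, Cd200, a surface protein that restrains microglia, had -2.88, Dcx, a microtubule protein of migrating neuroblasts, had -2.86 and the mechanosensitive channel Piezo2, with 2 UMIs in ULC, had -3.92 (-6.97 to -2.06). In Klk6- cells Tubb2a stood at -2.79 and Tubb2b at -2.79, so Klk6- cells of ULC were also below the control. After thinning to 1000 UMIs per cell, ULC held so few UMIs that the floor of 3 counts allowed a Tubb2a ratio of at most -0.91. Xist had 0 UMIs in ULC, 36.2 CPM in ULI and 81.5 CPM in the control, and its ULC ratio in Klk6- cells was -0.80.

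In ULI the genes furthest down included Snx32, with 0 UMIs against 448 in the control, Fgfrl1 at -3.13, Mvd, an enzyme of the mevalonate pathway, at -3.09 and Inf2, a formin, at -2.95 (-3.59 to -2.37). Fgfrl1 and Mvd had 5 UMIs each in ULI, of which 1 cell held 80% and 40%. In Klk6- cells Snx32 stood at -3.03, Fgfrl1 at -3.10, Mvd at -1.25 and Inf2 at -2.43, so these falls were not confined to Klk6+ cells. In microglia the 4 genes stood at -3.67, -1.86, -0.86 and 1.14. Against a floor of 3 counts in ULI, the log2 ratio of Snx32 was at most -3.42. Of 24 cholesterol synthesis genes 9 were at least 2-fold lower in ULI and none higher (12.1% of all genes were lower and 5.52% higher), with a median of -0.52. In ULC 2 were lower and 4 higher (8.38% and 13.2% of all genes), with a median of -0.48. Sqle, which makes squalene epoxide, had 840 CPM in ULI, 646 CPM in ULC and 743 CPM in the control, and did not reach 2-fold. Of 28 myelin genes 0 were at least 2-fold higher and 3 lower in ULI than in the control (5.52% and 12.1% of all genes), and 4 were higher and 0 lower in ULC (13.2% and 8.38%). In ULI over ULC 0 of 27 were higher and 7 lower (5.08% and 10.7% of all genes). Mbp, at 4128 CPM in ULI, 8926 CPM in ULC and 8671 CPM in the control, was lower in ULI, and its ratio was -1.07 in Klk6+ cells, -0.82 in Klk6- cells and -1.89 in microglia.

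Genes that were high in Klk6+ cells were also followed across conditions. In Klk6+ cells Hopx had ratios of -0.26 in ULI and 0.02 in ULC, Apod of 0.07 and -0.08, Anxa5 of -0.89 and -0.996 and S100b of -1.40 and -0.73. In Klk6- cells the same ratios were -0.86 and -1.77 for Hopx, -0.56 and -1.27 for Apod, -1.94 and -3.06 for Anxa5 and -2.48 and -1.98 for S100b. Each ratio of the 4 genes was thus lower in Klk6- cells than in Klk6+ cells of the same library, a difference that 1 library per condition leaves untested. The Klk6+ cells also differed in Klk6 level, with medians of 4.01, 13.7 and 5.74 per 10000 UMIs in ULI, ULC and the control. Hopx at over 2 to 5 Klk6 per 10000 stood at 341, 36.6 and 236 CPM in the deep cells of these libraries. Above 5 it stood at 862, 752 and 793 CPM. How far the Klk6 level shaped the ratios was not tested. Directly between the sides, ULI was above ULC for Mrps15 at 2.90, Tubb2a at 2.84 and Cd200 at 2.48, and below it for the adhesion protein Zyx at -4.94, with microglia at -3.96. Slc9a3r1 and Mfge8, with 2 UMIs each in ULI, stood at -5.50 (-8.59 to -3.58) and -5.33 (-8.42 to -3.40), with microglia at -3.90 and -3.06.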

How the data were processed

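Single-cell RNA libraries of the MVN were analysed, 1 library each for ULI, ULC and the control. The sources name the capture platform differently (10X in the study's methods, Drop-seq in the design text, BD Rhapsody in the sample records), so it is not given here. The authors deposited a table of raw UMI counts per gene and cell. The submitters' processing notes list CASAVA 1.8, UMI-tools, Seurat and the mm10 build, and the study's methods name Seurat for clustering. How the others were applied is not given in the sources used here. Every row named a gene, and 0 columns of the table belonged to no sample of the series.

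Cells with at least 200 genes were kept, and no doublet caller was run. Cells with 3 or more detected markers of another class were left out in an alternative. The members, the lists and the tests were chosen with earlier results of these data known. Klk6+ and Klk6- counts were summed per library and tested with edgeR 4.0.16 (R 4.3.3; quasi-likelihood, TMM, library as a term, at least 50 UMIs, Benjamini-Hochberg threshold 0.05, rule genes left out), and DESeq2 1.42.0 was an alternative. The 6 sums share animals within a condition, so p-values measure the spread between 3 libraries of different conditions. Conditions have no test: a gene was called at 2-fold or more, and for calls and list medians fewer than 3 UMIs were set to a floor of 3. Medians over all genes measured used ratios with no floor, and genes absent from a library of the pair were left out of them. A printed ratio that rests on 1 or 2 UMIs has no floor and is given with its counting interval. Thinning used 1000 UMIs per cell with seed 1, in Python 3.11.15 with numpy 2.4.6, scipy 1.17.1 and pandas 2.3.3. All scripts were tested on simulated data. Named genes were up to 6 per list, those with the most UMIs and those furthest from 0, the 15 highest and 15 lowest called fold changes with 1 sign in 3 libraries, and the 10 highest and 10 lowest ratios per condition comparison whose Poisson intervals did not overlap. Other genes were named after their values were seen, and results for some genes are not reported here. Alternatives were other thinning depths, filters, scalings, library blocks and left-out libraries.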

Additional observations from a re-analysis of the deposited data

Results flagged for a closer look

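In Klk6+ cells 8 genes named from the gene lists or the condition comparisons moved at least 2-fold in opposite directions in ULI and ULC. Their Poisson intervals did not overlap that of the control on either side. The difference was not tested because each condition was 1 library. Over all genes 118 did so, where 9120 genes were measured in ULI over control and 9100 in ULC over control. All of the 8 but Mvk were named because their ULI over ULC ratio was among the 10 highest or 10 lowest. That choice favours opposite directions, so how many of the named genes did so is not a result of its own. Against the control, Actr1a had a log2 ratio of -2.13 in ULI and 2.19 in ULC. Mvk had -1.46 and 1.29, and Pmvk, the next kinase of the mevalonate pathway, had -2.39 and 2.13. Mfge8 had -2.75 (95% counting interval -5.80 to -0.88) in ULI and 2.58 in ULC, Slc9a3r1 had -2.86 (-5.91 to -0.99) and 2.64, Yipf3 had -2.19 and 2.36, and Rpl35 had -2.46 and 1.88. Mrps15 ran the other way, at 1.29 in ULI and -1.61 in ULC. Ncs1, named above among the genes furthest up in Klk6+ cells, also moved in opposite directions. It stood at -1.91 in ULI (5 UMIs) and 1.22 in ULC (26 UMIs). In Klk6- cells Ncs1 had 0 UMIs in ULI and a ratio of -0.63 in ULC. The counts behind the lower side were small, from 2 UMIs of Mfge8 and of Slc9a3r1 to 10 UMIs of Actr1a in ULI. Klk6- cells had the same signs for the 7 of the 8 genes other than Mrps15, from -4.45 (Rpl35) to -0.14 (Yipf3) in ULI and from 0.60 (Slc9a3r1) to 2.36 (Actr1a) in ULC. Mvk alone of the 7 reached 2-fold on both sides there, at -1.96 in ULI and 1.03 in ULC, while Mrps15 stood at 0.00 and -0.19.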

How the results depend on the processing

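Each share of mature oligodendrocytes with Klk6 moved with the depth kept, at 1.97% (500 UMIs), 8% (2000 UMIs), 13.3% (5000 UMIs) and 8.21% (no thinning) in ULI, 22.0% (5000 UMIs) in ULC, and 15.1%, 32.3%, 48.9% and 47.4% in the control. The Klk6 ratio as a mean over cells was -2.99 for ULI over control and -1.83 for ULI over ULC, and without mixed cells it was -0.93 for ULC over control. For Klk6+ against Klk6- cells, the fit with no replicate block (library term left out) gave 0 genes higher and 1 lower (1177 at an unadjusted p under 0.05). Thinning to 1000 UMIs, with Klk6 status taken afterwards, gave 15 and 89. Genes lower numbered 425 by DESeq2, 288 without mixed cells and 429 in cells of at least 5000 UMIs. Leaving out each library in turn gave 173 to 454 genes higher and 575 to 813 lower. The cause of these changes was not tested.

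For ULI over control, genes higher numbered 886 at 20 UMIs or more, 154 at 200 UMIs or more, 87 after thinning and 776 as a mean over cells, and genes lower 566, 252 and 1881 under the last 3 settings. For ULC over control, genes higher numbered 425 at 200 UMIs and 138 after thinning, and genes lower 1178 with TMM factors, 166 after thinning and 2393 as a mean over cells. For ULI over ULC, genes higher numbered 571 at 20 UMIs or more and 10 at 200 UMIs or more. They numbered 6 after thinning and 589 as a mean over cells. Genes lower numbered 970 at 20 UMIs or more, 65 at 200 UMIs or more and 19 after thinning. TMM factors put 44.0% of the ULC over control calls and 43.3% of the ULI over ULC calls on the higher side, against 61.1% and 32.2% without them. No paired analysis was possible between conditions because each was 1 library. Of the values of single genes under these alternatives, 880 kept their direction and side of the threshold, 37 lost their call and 36 moved, and none reversed. The cells of at least 5000 UMIs and the removal of the top cell were chosen after seeing the data. ULC Klk6+ cells held the fewest UMIs, which limits ULC values most.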
